A study of Homo sapiens
Mus musculus with 6 samples.

Results

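The glycosyltransferases that build mucin-type O-glycans and N-glycans were examined in the human cancer cells of HT29 tumours, in which the mouse laminin alpha 1 chain was either overexpressed or not. HT29 is an established human colorectal adenocarcinoma line, and each tumour grew under the skin of a nude mouse for 4 weeks. Laminin alpha 1 tumours (3) and control tumours (3) carried the same cell line in the same host. The labels state neither the promoter of the transgene nor the number of cell clones nor what the control cells carried. Members were all human gene symbols of the GALNT, C1GALT, GCNT, B3GNT, B3GALT, B4GALT, MGAT, FUT, ST3GAL, ST6GAL and ST6GALNAC series, which gave 90 of the 56617 symbols in the human table. A symbol with several entries was taken from the entry with the largest signal. Of the 90 symbols, 80 are annotated as protein coding by RefSeq and 10 as pseudogenes.

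O-glycans of mucins start with a single N-acetylgalactosamine on a serine or threonine, placed by the GALNT enzymes in the Golgi. That sugar is extended to a core structure, branched, lengthened with galactose and N-acetylglucosamine, and capped with fucose or sialic acid. N-glycans are placed on asparagine in the endoplasmic reticulum, trimmed, and then branched by the MGAT enzymes before the same kinds of lengthening and capping. In the colon O-glycans make up most of the mass of the mucin glycoproteins, and their caps form the Lewis and sialyl antigens known from colorectal cancers.

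The deposited table holds 1 value per group, and significance is that of the authors' own test. No spread between tumours can be printed, except as whole reads per tumour for some values of up to 30 reads. Levels are parts per 1000000 of the summed human signal (ppm) and are of RNA, as enzymes and glycans were not measured. The signal follows read numbers and is not corrected for gene length, so levels are compared between groups and not between genes. A single read was worth 0.0120 to 0.0129 ppm in laminin alpha 1 tumours and 0.0126 to 0.0137 ppm in control tumours, and the number of reads behind a value is given from these bounds. A gene was called at a Benjamini-Hochberg adjusted p under 0.05 over all 25838 tested human genes. Epithelial markers were high in both groups, for example EPCAM at 1033 ppm in laminin alpha 1 tumours and 1041 ppm in control tumours, and all 10 markers of the colorectal epithelial list were detected. Of these 10, 1 rose and 0 fell: CDX2, an intestinal transcription factor, stood at 67.8 ppm in laminin alpha 1 tumours and 19.6 ppm in control tumours, while KRT8 had 1757 ppm (laminin alpha 1) and 1920 ppm (control). Of 13 genes that mark host stroma, blood, fat, muscle or skin, 7 had a test in the human table, 2 of these rose (ITGAM and COL1A1) and 3 were listed at 0 in both groups (ADIPOQ, KRT1 and PECAM1). Of the 7 tested, 6 had a ratio above 1 and 1 below 1. The latter was PDGFRB, not called, at 0.351 ppm in laminin alpha 1 tumours and 0.867 ppm in control tumours. For both lists, the shares among all tested human genes were 5.63% called higher and 2.45% called lower. The summed level of the 13 was 49.4 ppm in laminin alpha 1 tumours and 22.4 ppm in control tumours, most of it from CD68 (41.4 ppm in laminin alpha 1 and 18.9 ppm in control tumours). The part of other cells in the results below was not tested. In a tumour, fewer cells of a type and less RNA per cell cannot be told apart.

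Of the 90 members 73 had a test, and more of them fell than rose in laminin alpha 1 tumours. The test called 12 lower and 5 higher. Among all tested human genes 2.45% were called lower, 5.63% higher and 8.08% in either direction, against 16.4% of the tested members lower and 6.85% higher. At a mean level of 1 ppm or more, 11 of 61 members were lower, against 3.69% of all such genes called lower, and 5 were higher, against 7.9% called higher and 11.6% in either direction. The share of members called lower was thus well above that of all genes, and the share called higher was close to it. The summed level of all members was 4108 ppm in laminin alpha 1 tumours and 4131 ppm in control tumours. Genes with the most signal weigh most in this sum, and they moved in opposite directions. GCNT3, not called, had 749 ppm (laminin alpha 1) and 564 ppm (control), and ST3GAL1, called lower, had 466 ppm (laminin alpha 1) and 597 ppm (control).

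**Figure D1:**
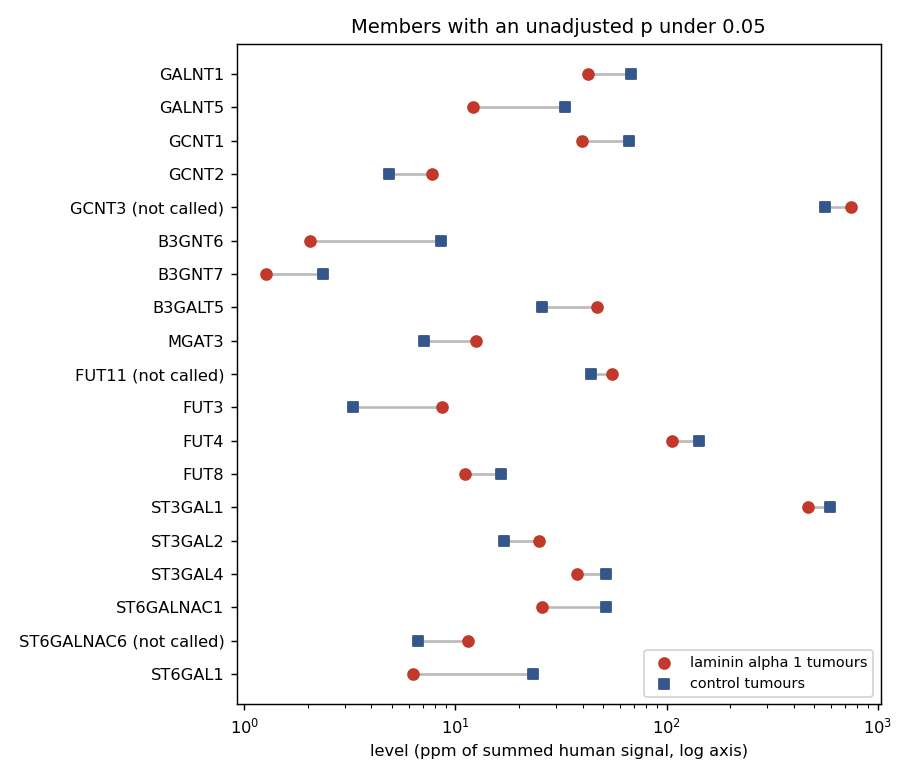
Level in ppm (log axis) of each member with an unadjusted p under 0.05 and signal in both groups, with laminin alpha 1 tumours as circles and control tumours as squares (1 deposited value per group, no error available). ST6GAL1, B3GNT6 and GALNT5 lie furthest below their control values, and FUT3 lies furthest above its control value.

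The members did not shift together. At 1 ppm or more the median of the authors' log2 ratios, laminin alpha 1 over control, was -0.01 over members and -0.02 over all genes. The lower tail differed more, with a 10th percentile of -0.82 for members and -0.35 for all genes, while the 90th percentile was 0.56 for members and 0.54 for all genes. Log2 ratios smaller than 0.25 in size were found for 50.8% of members and for 62.0% of all genes at this level.

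**Figure D2:**
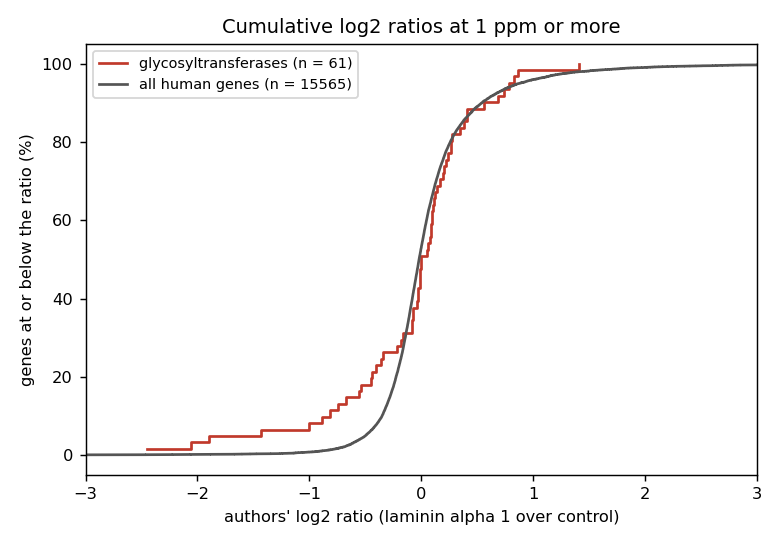
Cumulative share of genes (%) against the authors' log2 ratio of laminin alpha 1 over control tumours, for 61 glycosyltransferases and 15565 human genes of 1 ppm or more. The curves run close together above a ratio of 0, and the curve of the glycosyltransferases lies above that of all genes at ratios below -0.25.

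Of the 14 tested GALNT genes, which encode the enzymes of chain initiation, 3 were called lower and 0 higher. The shares of all tested human genes were 2.45% lower and 5.63% higher. GALNT13, among the 3, lay below 1 ppm. GALNT5, which acts on mucin peptides in epithelia, stood at 12.2 ppm in laminin alpha 1 tumours and 32.9 ppm in control tumours, 0.370-fold, on 940 to 1012 reads (laminin alpha 1) and 2401 to 2602 reads (control). GALNT1, a broadly expressed initiating enzyme, stood at 42.3 ppm in laminin alpha 1 tumours and 67.7 ppm in control tumours, 0.625-fold. In the authors' deposited table both had p = 5e-05, with a Benjamini-Hochberg adjusted p of 0.00121, and 5e-05 is the smallest p in that table, shared by 10 members. GALNT13, known as a neuronal member of the series, was listed at 0 in laminin alpha 1 tumours and at 0.344 ppm in control tumours, with the same p and adjusted p. Its control value splits into whole reads as 19, 6 and 2 in the 3 control tumours. By this split every control tumour held reads and 1 tumour held most of them. Splits are less secure at this number of reads. There 64.1% of control values had any split, as did 4.89% of values shifted off the read steps. The protein-coding gene RPRM overlaps the span of GALNT13 in RefSeq. Where exons overlap, reads cannot be told apart without strand, and exons were not compared.

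The other 11 tested GALNT genes did not pass. GALNT3, an enzyme of epithelia, had 232 ppm in laminin alpha 1 tumours and 244 ppm in control tumours. GALNT7, which extends peptides that already carry a first sugar, had 123 ppm (laminin alpha 1) and 124 ppm (control), and GALNT12, an enzyme of the colon, had 137 ppm (laminin alpha 1) and 145 ppm (control). The log2 ratios of these genes and of GALNT6, GALNT11 and GALNT14 lay between -0.08 and 0.08. GALNT2, GALNT4 and GALNT10 had 65.8, 87.1 and 60.8 ppm in laminin alpha 1 tumours and 57.7, 71.9 and 68.3 ppm in control tumours. GALNT18 had 0.361 ppm in laminin alpha 1 tumours and 1.97 ppm in control tumours, yet p was 0.269 in the authors' deposited table. GALNT8 had 9.11 ppm (laminin alpha 1) and 16.0 ppm (control), and its p in the authors' deposited table was 0.0687.

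At the step to core structures, the core 3 enzyme fell while the core 1 enzyme and its chaperone did not pass. B3GNT6, the synthase of core 3, a structure typical of normal colon mucin, stood at 2.05 ppm in laminin alpha 1 tumours and 8.50 ppm in control tumours. This was 0.241-fold, on 158 to 171 reads (laminin alpha 1) and 621 to 673 reads (control), with p = 5e-05 in the authors' deposited table and a Benjamini-Hochberg adjusted p of 0.00121. C1GALT1, which makes core 1, had 106 ppm in laminin alpha 1 tumours and 98.8 ppm in control tumours (p = 0.433 in the authors' deposited table). Its chaperone C1GALT1C1 (Cosmc) had 47.2 ppm (laminin alpha 1) and 48.1 ppm (control) (p = 0.835 in the authors' deposited table).

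The branching enzymes of the GCNT series moved in different directions. GCNT1, a core 2 enzyme, fell to 39.9 ppm in laminin alpha 1 tumours, against 66.7 ppm in control tumours (0.598-fold, p = 5e-05 in the authors' deposited table, Benjamini-Hochberg adjusted p = 0.00121). The span of GCNT1 overlaps the protein-coding gene RFK in RefSeq, and whether they share reads is not known, as exons were not compared. GCNT2, the I-branching enzyme of long chains, rose to 7.75 ppm in laminin alpha 1 tumours, against 4.83 ppm in control tumours (1.61-fold, p = 0.00025 in the authors' deposited table, Benjamini-Hochberg adjusted p = 0.00504). GCNT3, the mucin-type enzyme that makes core 2 and core 4 in the gut, stood at 749 ppm in laminin alpha 1 tumours and 564 ppm in control tumours. It missed the threshold, with p = 0.0071 in the authors' deposited table and a Benjamini-Hochberg adjusted p of 0.0772. Of the other GCNT symbols, GCNT4 had 5 reads in laminin alpha 1 tumours and 7 in control tumours, GCNT7 had 0.539 ppm (laminin alpha 1) and 0.414 ppm (control), and the GCNT1 and GCNT2 pseudogenes had at most 0.143 ppm.

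**Figure D3:**
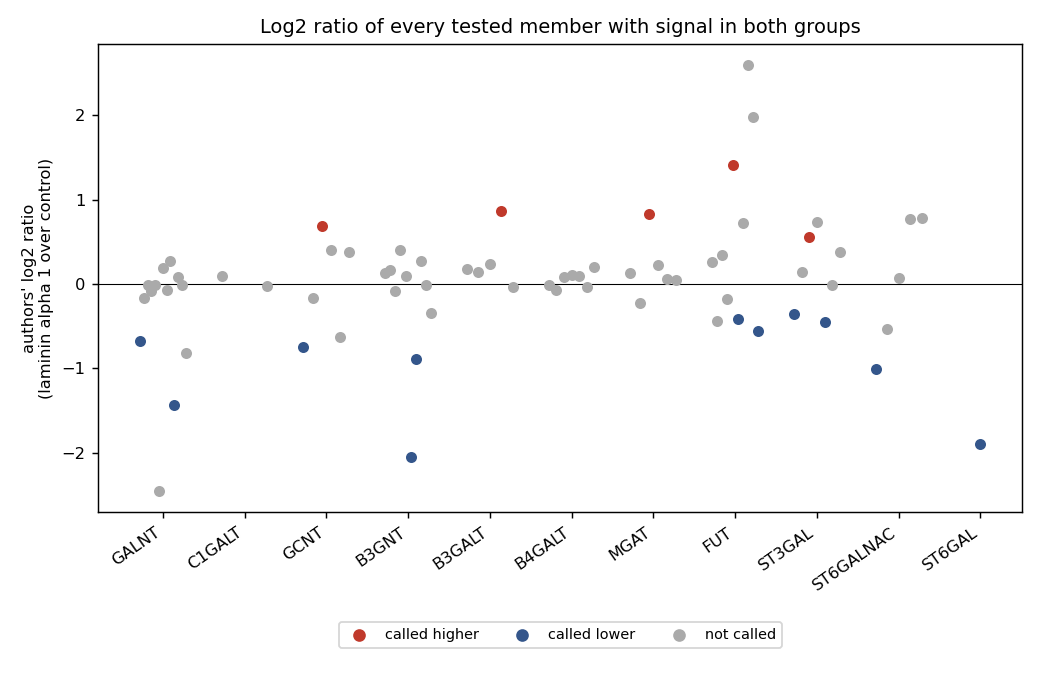
The authors' log2 ratio of laminin alpha 1 over control tumours for each tested member with signal in both groups, by gene series (genes in alphabetical order within a series), coloured by the call. All B4GALT ratios lie within 0.20 of 0, while the GALNT, GCNT, B3GNT, FUT and sialyltransferase series each hold a ratio called lower beyond -0.35.

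Among chain lengthening genes, single members of the B3GALT and B3GNT series changed and no B4GALT gene passed. All 7 B4GALT genes, whose enzymes add galactose to N-acetylglucosamine, glucose or xylose, had log2 ratios between -0.08 and 0.20, and 0 of 7 passed the authors' test or had an unadjusted p under 0.05. B4GALT5, for example, had 196 ppm in laminin alpha 1 tumours and 183 ppm in control tumours. The share called in either direction among all tested human genes was 8.08%. B3GALT5, which makes the type 1 chains that carry Lewis a and sialyl Lewis a in the gut, rose to 46.6 ppm in laminin alpha 1 tumours, against 25.7 ppm in control tumours. The change was 1.82-fold, on 3606 to 3883 reads (laminin alpha 1) and 1875 to 2032 reads (control), with p = 5e-05 in the authors' deposited table and a Benjamini-Hochberg adjusted p of 0.00121. B3GALT4 and B3GALT6, which serve gangliosides and proteoglycans, had 5.58 and 29.7 ppm in laminin alpha 1 tumours against 4.74 and 30.4 ppm in control tumours and did not pass. B3GALT1 and B3GALT2 rested on 6 to 12 reads per group.

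Of the 10 tested B3GNT genes 2 fell, B3GNT6 above and B3GNT7, against 2.45% of all tested human genes called lower. B3GNT7, an enzyme of keratan sulfate and poly-N-acetyllactosamine chains, had 1.27 ppm in laminin alpha 1 tumours and 2.35 ppm in control tumours. This was 0.540-fold on 98 to 106 reads (laminin alpha 1) and 172 to 186 reads (control), with p = 0.00255 in the authors' deposited table and a Benjamini-Hochberg adjusted p of 0.0345. The other B3GNT genes did not pass. B3GNT5, which starts lacto-series glycolipids, had 91.2 ppm in laminin alpha 1 tumours and 85.4 ppm in control tumours. B3GNT2, the main poly-N-acetyllactosamine enzyme, had 56.9 ppm (laminin alpha 1) and 50.6 ppm (control), and B3GNT3, which lengthens core 1, had 44.9 ppm (laminin alpha 1) and 47.5 ppm (control). The symbols B3GNT1 and B3GNTL1 are now B4GAT1, a glucuronyltransferase of dystroglycan, and QTGAL in RefSeq, and neither passed. B3GNT4, B3GNT8 and B3GNT9 had 1.28, 3.29 and 7.39 ppm in laminin alpha 1 tumours and 0.964, 2.73 and 7.42 ppm in control tumours.

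In N-glycan branching MGAT3 alone of 6 tested MGAT genes passed, against 8.08% of all tested human genes called in either direction. MGAT3, which adds the bisecting N-acetylglucosamine, stood at 12.6 ppm in laminin alpha 1 tumours and 7.07 ppm in control tumours, 1.78-fold, on 973 to 1048 reads (laminin alpha 1) and 517 to 560 reads (control). Its p in the authors' deposited table was 5e-05, with a Benjamini-Hochberg adjusted p of 0.00121. The enzymes that open the other branches did not pass. MGAT4B had 321 ppm in laminin alpha 1 tumours and 309 ppm in control tumours, MGAT5 had 173 ppm (laminin alpha 1) and 167 ppm (control), and MGAT1, the first of the series to act, had 92.4 ppm (laminin alpha 1) and 84.7 ppm (control). MGAT2 had 20.5 ppm (laminin alpha 1) and 23.9 ppm (control) and MGAT4A had 39.1 ppm (laminin alpha 1) and 33.6 ppm (control), and all 5 had an unadjusted p above 0.1 in the authors' deposited table.

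Among fucosyltransferases the Lewis enzyme rose, and the core fucose enzyme and FUT4 fell. FUT3, which adds fucose to type 1 and type 2 chains to form the Lewis antigens, stood at 8.65 ppm in laminin alpha 1 tumours and 3.26 ppm in control tumours. This was 2.65-fold, on 669 to 720 reads (laminin alpha 1) and 238 to 258 reads (control), with p = 5e-05 in the authors' deposited table and a Benjamini-Hochberg adjusted p of 0.00121. FUT3 lies between FUT6 and FUT5 on chromosome 19 with 0 other protein-coding genes between them in RefSeq, and these paralogs are close enough in sequence that reads can be split between them, so the value of each is uncertain. FUT6 held 4, 10 and 5 reads in the laminin alpha 1 tumours and 1, 0 and 2 in the control tumours, and p was 0.101 in the authors' deposited table. FUT5 had 0.130 ppm in laminin alpha 1 tumours and 0.0793 ppm in control tumours, and neither value was a sum of whole reads.

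FUT8, the enzyme of core fucose on N-glycans, fell to 11.1 ppm in laminin alpha 1 tumours, against 16.4 ppm in control tumours (0.681-fold, p = 0.0009 in the authors' deposited table, Benjamini-Hochberg adjusted p = 0.0149). FUT4, which forms Lewis x, fell to 107 ppm in laminin alpha 1 tumours, against 142 ppm in control tumours (0.753-fold, p = 0.0037 in the authors' deposited table, Benjamini-Hochberg adjusted p = 0.0465). The H antigen enzymes FUT1 and FUT2 did not pass, with 4.84 and 41.4 ppm in laminin alpha 1 tumours and 4.04 and 46.9 ppm in control tumours. FUT10 and FUT11 are named POFUT3 and POFUT4 in RefSeq. FUT11 had 55.3 ppm in laminin alpha 1 tumours and 43.7 ppm in control tumours (p = 0.0113 in the authors' deposited table, Benjamini-Hochberg adjusted p = 0.110), and FUT10 had 8.61 ppm (laminin alpha 1) and 11.7 ppm (control). FUT7, the sialyl Lewis x enzyme of leukocytes, had 0.379 ppm in laminin alpha 1 tumours, about 29 to 32 reads, against 0.0961 ppm in control tumours, about 7 to 8 reads. Its p in the authors' deposited table was 0.316.

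**Figure D4:**
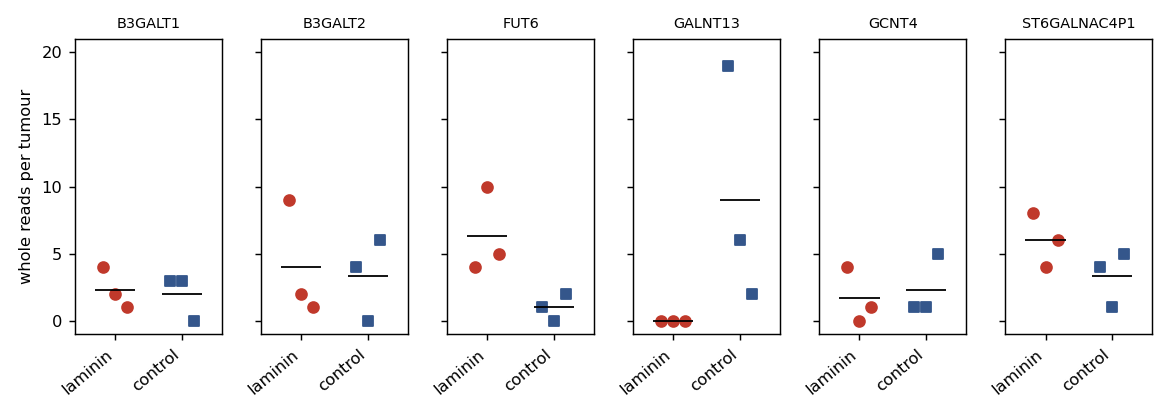
Whole reads per tumour (vertical axis) for the 6 tested members whose values in both groups split into whole reads in 1 way, with 3 laminin alpha 1 tumours (circles) and 3 control tumours (squares) each and the mean as a line. The groups are apart for FUT6 and GALNT13 and overlap for B3GALT1, B3GALT2, GCNT4 and ST6GALNAC4P1. How often groups are apart among other genes with few reads was not counted, so no difference is read from this.

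For sialic acid caps, 4 of 13 tested genes were called lower and 1 higher, against 2.45% and 5.63% of all tested human genes. At an adjusted p under 0.01, only ST6GAL1 and ST6GALNAC1 of these stayed called. The 13 include the pseudogenes ST3GAL1P1 and ST6GALNAC4P1. ST6GAL1, which puts sialic acid on N-glycan galactose, fell to 6.29 ppm in laminin alpha 1 tumours, against 23.4 ppm in control tumours (0.269-fold, on 486 to 524 reads (laminin alpha 1) and 1710 to 1854 reads (control)). ST6GALNAC1, the enzyme of the sialyl-Tn antigen, fell to 25.7 ppm in laminin alpha 1 tumours, against 51.7 ppm in control tumours (0.497-fold). In the authors' deposited table each had p = 5e-05, with a Benjamini-Hochberg adjusted p of 0.00121. ST6GALNAC6, an enzyme of disialyl Lewis a and of gangliosides, had 11.4 ppm in laminin alpha 1 tumours and 6.62 ppm in control tumours and missed the threshold, with p = 0.0252 in the authors' deposited table and a Benjamini-Hochberg adjusted p of 0.197. ST6GALNAC4, its direct neighbour on chromosome 9, had 16.1 ppm (laminin alpha 1) and 15.3 ppm (control), and ST6GALNAC2 had 0.994 ppm (laminin alpha 1) and 1.44 ppm (control).

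The ST3GAL enzymes, which place sialic acid on galactose in another linkage, split as well. ST3GAL1, the main capping enzyme of core 1, stood at 466 ppm in laminin alpha 1 tumours and 597 ppm in control tumours. This was 0.780-fold, with p = 0.00395 in the authors' deposited table and a Benjamini-Hochberg adjusted p of 0.0490, next to the threshold. ST3GAL4, which caps type 2 chains, fell to 37.8 ppm in laminin alpha 1 tumours, against 51.4 ppm in control tumours (0.734-fold, p = 0.0019 in the authors' deposited table, Benjamini-Hochberg adjusted p = 0.0273). ST3GAL2, which acts on core 1 and on gangliosides, rose to 24.9 ppm in laminin alpha 1 tumours, against 17.0 ppm in control tumours (1.47-fold, p = 0.0006 in the authors' deposited table, Benjamini-Hochberg adjusted p = 0.0106). ST3GAL3, ST3GAL5 and ST3GAL6 had 2.81, 0.441 and 2.70 ppm in laminin alpha 1 tumours and 1.68, 0.445 and 2.07 ppm in control tumours, and none passed. The sialyltransferase pseudogenes ST3GAL1P1 and ST6GALNAC4P1 had 0.579 and 0.225 ppm in laminin alpha 1 tumours and 0.523 and 0.132 ppm in control tumours.

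The 17 members without a test were at or near the lowest measurable level. Of these, 8 were listed at 0 in both groups, among them FUT9, GALNTL5 and MGAT5B. The other 9 had between 0.0120 and 0.0631 ppm where they had signal, at most 5 reads per group, and included GALNT9, GALNT15, GALNT16, ST6GAL2, ST6GALNAC3 and ST6GALNAC5.

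Host genes of the same families did not pass the test. A mouse gene of the same symbol was found for 72 of the 80 protein-coding members, and 59 of these had a test. At an authors' q under 0.05, 0 of the 59 were called higher and 0 lower, against 0.579% and 2.96% of all tested mouse genes and 3.54% in either direction, and 1 of the 59 had an unadjusted p under 0.05. That gene was B3gnt7, at 27.8 ppm of the mouse signal in laminin alpha 1 tumours and 13 ppm in control tumours (q = 0.154 in the authors' deposited table), while human B3GNT7 fell. Mouse St6gal1 had 84.8 ppm of the mouse signal in laminin alpha 1 tumours and 80.3 ppm in control tumours, and mouse Galnt1 had 253 ppm (laminin alpha 1) and 252 ppm (control). Whether tumour cells and host differ was not tested, and the mouse table rests on fewer reads.

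**Figure D5:**
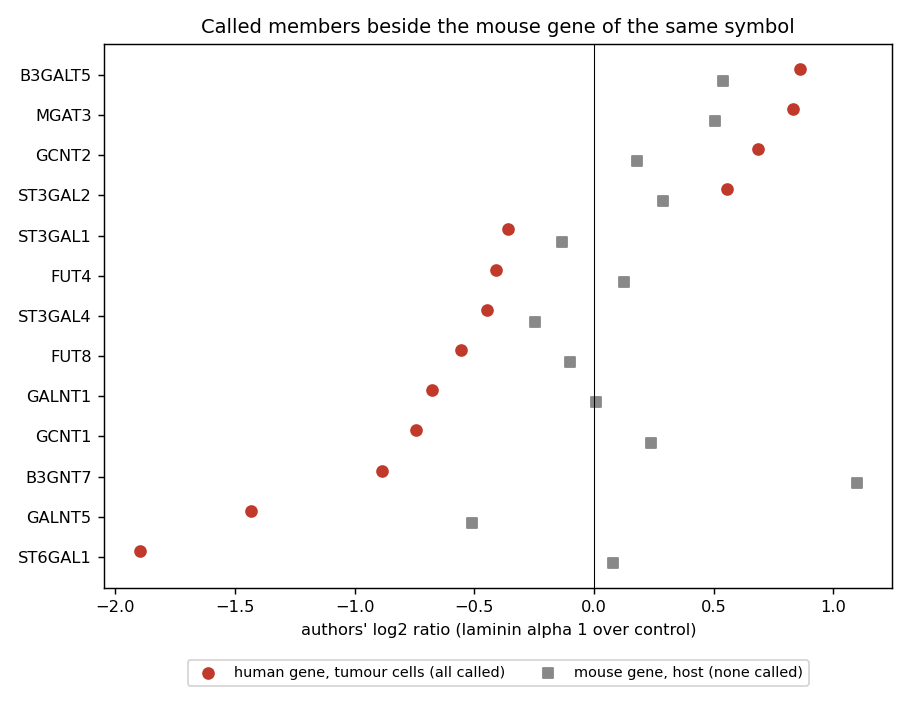
The authors' log2 ratio of laminin alpha 1 over control tumours for the 13 called human members with a tested mouse gene of the same symbol, with the human gene as a circle above the mouse gene as a square. Human ratios run from -1.90 to 0.86, and the mouse ratios, none of them called, from -0.51 to 1.10.

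Genes of the earlier steps of glycan synthesis are set against the same shares of all tested human genes, 5.63% called higher and 2.45% called lower, and nothing particular to them is read from their counts. Of 31 genes of nucleotide sugar supply 1 fell, with a median log2 ratio of -0.05. SLC35A1, the Golgi importer of activated sialic acid, fell to 43.7 ppm in laminin alpha 1 tumours, against 61.0 ppm in control tumours (p = 0.00045 in the authors' deposited table, Benjamini-Hochberg adjusted p = 0.00836). GFPT1, the entry enzyme of the hexosamine pathway, did not pass, at 499 ppm (laminin alpha 1) and 494 ppm (control). Of 27 genes that assemble and transfer the N-glycan precursor 2 rose and 0 fell (median -0.06). They were ALG5 (75.5 ppm in laminin alpha 1 tumours, 33.8 ppm in control tumours) and MAGT1 (151 ppm in laminin alpha 1 and 71.5 ppm in control tumours), each with a Benjamini-Hochberg adjusted p of 0.00121. Of 12 N-glycan trimming genes the mannosidase MAN1A1 rose to 87.8 ppm in laminin alpha 1 tumours, against 38.0 ppm in control tumours (p = 5e-05 in the authors' deposited table, Benjamini-Hochberg adjusted p = 0.00121), and 0 fell. The glucosidase subunit GANAB had 576 ppm (laminin alpha 1) and 605 ppm (control), and RPN2, a subunit of the oligosaccharyltransferase, had 541 ppm (laminin alpha 1) and 589 ppm (control).

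Among 28 tested glycosyltransferases outside the member series 2 rose and 2 fell, with a median log2 ratio of 0.10. Among all tested human genes 5.63% were called higher and 2.45% lower, and nothing particular to these lists is read from their counts. B3GALTL, which acts on thrombospondin repeats, rose to 28.8 ppm in laminin alpha 1 tumours, against 11.6 ppm in control tumours. LFNG, the Notch-modifying lunatic fringe, fell to 39.98 ppm in laminin alpha 1 tumours, against 61.2 ppm in control tumours. Both had a Benjamini-Hochberg adjusted p of 0.00121. XYLT1, which starts proteoglycan chains, fell to 1.66 ppm in laminin alpha 1 tumours, against 3.13 ppm in control tumours (p = 0.0007 in the authors' deposited table, Benjamini-Hochberg adjusted p = 0.0121). The other rise was ST8SIA3, listed at 0.151 ppm in laminin alpha 1 tumours and at 0 in control tumours. That level lies below 1 ppm and rests on few reads. Of 8 tested glycan sulfotransferases CHST6 rose to 1.51 ppm in laminin alpha 1 tumours, against 0.628 ppm in control tumours (p = 0.0017 in the authors' deposited table, Benjamini-Hochberg adjusted p = 0.0249), and 0 fell. None of 8 tested lectin genes passed, with 2 at an unadjusted p under 0.05. OGT, CHST5 and the galectin LGALS4 did not pass, with 757, 29.9 and 1597 ppm in laminin alpha 1 tumours and 693, 31.1 and 1777 ppm in control tumours.

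The mucin core proteins that carry O-glycans changed in both directions, 5 higher and 4 lower of 13 tested. These were 38.5% higher and 30.8% lower, against 5.63% and 2.45% of all tested human genes. At a mean level of 1 ppm or more, 7.9% of all human genes were called higher and 3.69% lower. MUC12 and MUC16, membrane mucins, rose to 108 and 9.06 ppm in laminin alpha 1 tumours, against 26.9 and 4.09 ppm in control tumours. The gel-forming MUC5AC fell to 1.71 ppm in laminin alpha 1 tumours, against 18.9 ppm in control tumours. Each of these 3 had a Benjamini-Hochberg adjusted p of 0.00121, as did MUC13, which rose to 1463 ppm in laminin alpha 1 tumours, against 902 ppm in control tumours. The falls were the gel-forming MUC2, MUC5AC and MUC5B with the membrane mucin MUC17, and the rises were the membrane mucins MUC1, MUC12, MUC13, MUC16 and MUC20.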

How the data were processed

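RNA of 6 tumours was sequenced after oligo-dT selection and random priming, per the labels' protocols, which describe no step that keeps the strand. TopHat2, Cufflinks, hg38 and mm10 are named in the submitters' processing notes without role or version. The authors deposited 1 table per species with 1 signal value per group, a log2 ratio of laminin alpha 1 over control, and, per the file headers, p-values, joined by q-values in the mouse table. The summed human signal was 891 and 893 in laminin alpha 1 and control tumours, in units of 1000000, far above usual FPKM, so values were divided by 1 factor per table to give ppm. Tumours are called independent in the series' design text.

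For human genes a Benjamini-Hochberg adjustment was made over the 25838 genes with a test (Python 3.11.15, numpy 2.4.6, pandas 2.3.3; adjustment and read splitting were tested on simulated data). The worth of 1 read in each tumour was taken from the steps of the deposited values. Values of up to 30 reads were split into whole reads per tumour (tolerance 0.002 signal units). Of sampled low values in laminin alpha 1 and control tumours, 74.0% and 72.4% had a single split, against 0.933% and 0.733% of values moved off the steps. Splits were less secure for the largest of these values. There 62.6% of laminin alpha 1 and 64.1% of control values had any split, and 6.13% and 4.89% of moved values had a split by accident. Which step belongs to which sample is not known. Intervals of reads cover the differing worth of a read only.

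All 90 member symbols matched RefSeq (GRCh38.p14), 5 by an older symbol. Deposited human loci overlap the GRCh38 place of the gene for 23 members and not for 67, although hg38 is named, so no coordinates are printed. In RefSeq the spans of 58 members, among them 13 of the 17 called, overlap another gene, pseudogenes and microRNAs included. Exons were not compared, so how many reads are shared is not known. Where exons overlap, reads cannot be separated without strand. Members and lists were chosen with earlier results of these data known. Named genes were members called or with an unadjusted p under 0.05, the member with the most signal per series, and from each list the 3 called genes of 1 ppm or more with the largest ratio and the gene with the most signal; other members are named to account for all of them. A mouse line with shifted cells was left out. A result of the nucleotide sugar list is not reported here. Sequences were not used here.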

Additional observations from a re-analysis of the deposited data

How the results depend on the processing

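The main calls were 12 members lower and 5 higher, and more were lower than higher under each setting that follows. The stricter settings take parts of the same calls, so they add no independent support. Summing the entries of a symbol and centring on the median gene reused the same calls and are not counted. Adjusting only over genes of 1 ppm or more gave 11 lower and 5 higher, the loss being GALNT13, which lies below that level. At an adjusted p under 0.01 the calls were 7 lower and 4 higher, and at under 0.10 they were 12 and 6. Requiring also a 1.5-fold difference gave 8 and 4, and with 1 ppm added to both levels 6 and 4. The median log2 ratio of tested members was 0.07, but -0.01 (-0.0062) among members of 1 ppm or more and -0.0065 among those of 5 ppm or more, against -0.02 for all human genes of 1 ppm or more, since members with few reads and high ratios drop out. Adjusting only over genes of 1 ppm or more left 1 host marker gene higher, as COL1A1 lies below that level. Every named member with signal in both groups kept its side of the threshold with the adjustment over genes of 1 ppm or more. Adding 1 ppm to both levels cannot change the direction of a ratio and leaves the p-value as it is. Centring on the median gene, whose log2 ratio was -0.0027, hardly moved any ratio and also left the p-value as it is. Neither setting was therefore a test of direction. No paired analysis was possible because the tables hold 1 value per group, and for the same reason leaving out a tumour was not run. Low members are limited by depth: 12 tested members lay below 1 ppm, and 1 of them was called.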
